A study of Mus musculus with 12 samples.

Results

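The genes described here encode norrin, its receptor complex on retinal vessels, the signal carrier beta-catenin and 3 genes that respond to beta-catenin. The 9 genes, Ndp, Fzd4, Lrp5, Lrp6, Tspan12, Ctnnb1, Axin2, Apcdd1 and Lef1, were taken by symbol from a table of read counts for 35976 mouse genes, and all 9 were in it. The table holds 12 retinal libraries, 3 in each of 4 groups: C57BL/6 pups labelled WT in normoxia, pups labelled WT after oxygen-induced retinopathy (OIR), and the same pair of conditions in pups labelled Casp1 KO. In OIR, pups breathe 75% oxygen from postnatal day 7 to 12, which stops retinal vessel growth and makes vessels regress, and their return to room air leaves the retina short of oxygen. The pups labelled WT were sampled at postnatal day 15, after 3 days in room air, and their controls of the same age stayed at 21% oxygen. For the pups labelled Casp1 KO the labels give 3 days after OIR, and neither their age nor the oxygen level is stated. Casp1 encodes caspase-1, the protease that activates interleukin-1 beta, and the knockout allele is not described. The number of pups behind a library is not stated either, so the spread between these libraries, from which the p-values are drawn, may be technical. In the main test used below that spread was pooled over genes. Its SEs, intervals and p-values therefore do not carry the scatter of a single gene between its libraries.

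Norrin is a secreted protein, made in the retina mainly by Muller glia, that binds the receptor Frizzled-4 on endothelial cells together with the co-receptors LRP5 or LRP6 and the membrane protein TSPAN12. Binding keeps beta-catenin from being broken down, and beta-catenin then enters the nucleus and switches on target genes with transcription factors of the TCF and LEF family. The pathway is known for building the deep vessel layers of the retina and for keeping the blood-retina barrier, and loss of NDP, FZD4, LRP5 or TSPAN12 in people causes retinal vascular disease. Axin2, Apcdd1 and Lef1 are classic targets that are used to read beta-catenin activity, and the first pair also encode inhibitors of the pathway.

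Total counts ran from 3391203 to 5657873 in 11 libraries and reached 22815830 in the library labelled WT normoxia 2. Rod markers summed to 36047 to 43307 CPM (counts scaled to library size) in all 12 libraries, as retina would give. Casp1 itself had 7 reads over the 6 libraries labelled WT and 126 over the 6 labelled Casp1 KO, against the direction of the labels. Each library labelled WT had 0 to 3 of these reads and each labelled Casp1 KO had 10 to 45. Reads of a 3' end outside the deleted part and an exchange of the genotype labels were not tested, and neither can be told apart from other causes here. Genotypes are therefore given as labelled, and every direction between them rests on those labels. The library labelled WT OIR 3 stood apart within its group: the chi-square per degree of freedom of its counts against the other 2 was 15.2 and 14.2, while the remaining pairs of replicates lay between 3.49 and 9.46. No pair of replicates agreed within sampling noise. Levels below are CPM scaled by TMM, a factor that equalizes library composition. Since the QuantSeq kit reads only the 3' end of polyadenylated RNA, a level does not grow with transcript length. A comparison of levels between genes still depends on how well each 3' end is annotated and mapped, which was not tested. In whole retina, fewer cells of a type and less RNA per cell cannot be told apart.

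Positions follow the GENCODE vM21 annotation of GRCm38 (mm10). Ndp lies on chromosome X from 16885521 to 16911774 and Fzd4 on chromosome 7 from 89404355 to 89413134. Lrp5 lies on chromosome 19 from 3584828 to 3686564, while Lrp6 and Tspan12 share chromosome 6, at 134446476 to 134566965 and 21771395 to 21852515. Ctnnb1 lies on chromosome 9 from 120929216 to 120960507, Axin2 on chromosome 11 from 108920349 to 108950783 and Lef1 on chromosome 3 from 131110471 to 131224356. Tspan12, Ctnnb1, Axin2 and Lef1 overlap annotated genes on the other strand, and the strand setting of the counting is not given in the sources used here. Ctnnb1 and Lef1 also overlap genes on the same strand, Mir7090 and Gm42449, which a strand setting would not separate. Reads of such partners could be counted with the members or drop out.

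The promoters of Lef1 and Axin2 are shown because both genes are textbook readouts of beta-catenin, and Lef1 is the member called below. RefSeq (GRCm38.p6) gives 4 start sites for Lef1, and 3' reads do not tell which was used. The 250 bases before the first and the last of them, both on the plus strand, are followed by those before the Axin2 start.
Lef1, first start, chr3:131110047-131110296: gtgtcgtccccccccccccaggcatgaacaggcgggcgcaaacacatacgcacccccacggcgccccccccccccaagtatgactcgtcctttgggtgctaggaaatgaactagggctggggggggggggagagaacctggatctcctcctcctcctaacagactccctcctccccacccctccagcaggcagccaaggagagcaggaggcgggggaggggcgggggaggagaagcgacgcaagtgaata
Lef1, last start, chr3:131156044-131156293: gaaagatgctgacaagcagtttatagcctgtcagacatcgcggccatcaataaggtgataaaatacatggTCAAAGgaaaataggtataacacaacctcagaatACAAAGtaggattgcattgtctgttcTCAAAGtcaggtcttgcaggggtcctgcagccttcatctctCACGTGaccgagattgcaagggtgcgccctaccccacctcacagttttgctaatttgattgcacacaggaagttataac
Axin2, chr11:108920099-108920348: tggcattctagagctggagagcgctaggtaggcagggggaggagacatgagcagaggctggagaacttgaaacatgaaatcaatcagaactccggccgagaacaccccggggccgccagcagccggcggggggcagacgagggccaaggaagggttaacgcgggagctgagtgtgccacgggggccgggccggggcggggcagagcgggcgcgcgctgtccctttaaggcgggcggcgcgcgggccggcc
Capitals mark the letters CTTTGA and CTTTGT, the core that TCF and LEF proteins bind, and ACGTG, a form of the core of the hypoxia response element, each searched on both strands. Other forms of that core were not searched. Over windows of 300 bases, from 250 before to 50 after a start, the last Lef1 start held CTTTGA at 2 positions and CTTTGT at 1, all on the minus strand, and ACGTG on both strands of a single CACGTG. The other 3 Lef1 windows and the Axin2 window held none of these letters. Of the remaining members, the Ndp and the Tspan12 windows held CTTTGT once each, the windows of Fzd4 and Ctnnb1 held none, and Lrp5, Lrp6 and Apcdd1 were not searched. Among 32851 RefSeq promoter windows of the same length, 16% held CTTTGA, 18.7% CTTTGT and 19.6% ACGTG, so each is common by itself, and a match is a run of letters and not a binding site.

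The 9 genes covered a wide range of levels. Averaged over the 12 libraries, Ctnnb1 stood at 286 CPM, Lrp6 at 43.5, Axin2 at 16.2, Fzd4 at 6.86, Tspan12 at 6.70, Ndp at 5.28, Lef1 at 3.70, Lrp5 at 2.86 and Apcdd1 at 0.0743. Ctnnb1, Lrp6 and Axin2 were each above the next gene in this order in all 12 libraries without overlap of their ranges. From Fzd4 down to Lrp5 the ranges overlapped: Fzd4 exceeded Tspan12 in 7 of 12 libraries and Lef1 exceeded Lrp5 in 5 of 12, so these neighbours were not separated. Of the co-receptors, Lrp6 lay above Lrp5 in every library. The coefficient of variation over all libraries was 6.61% for Ctnnb1 and 9.08% for Axin2, where counting error alone gives 2.64% and 11.2%. It was 21.4% for Ndp, 29.1% for Fzd4, 16.9% for Lrp6, 42.5% for Tspan12 and 42.6% for Lrp5, against counting errors of 19.4%, 16.9%, 6.78%, 17.5% and 26.9%. Lef1 varied most among the 8 genes with more than a handful of reads, by 92.8% against a counting error of 23.7%. The plot of levels by library shows this contrast between steady and scattered genes.

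**Figure D1:**
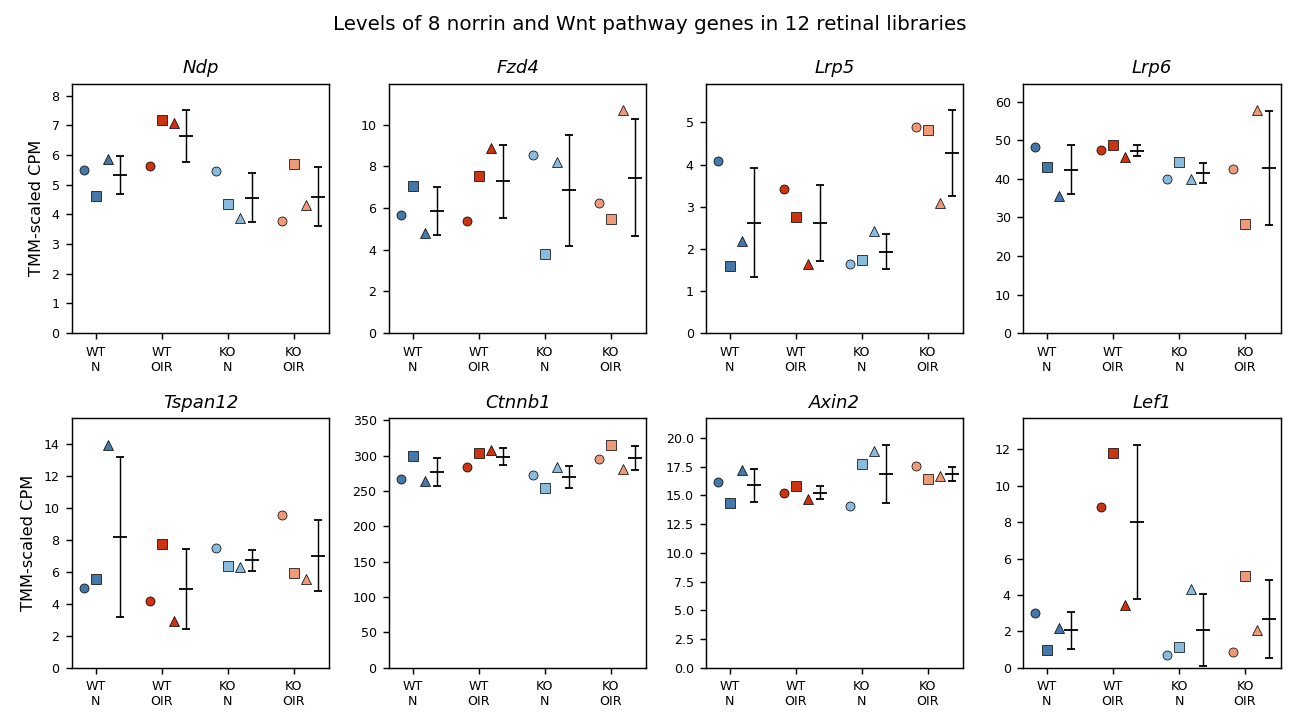
TMM-scaled CPM (y axis) of 8 genes in libraries labelled WT or Casp1 KO (KO), in normoxia (N) or OIR; circles, squares and triangles are replicates 1, 2 and 3, and black bars give the mean and SD of 3 libraries. The 3 libraries labelled WT OIR lie above the 3 labelled WT normoxia for Lef1, at 3.45 to 11.8 against 0.979 to 3.02 CPM, while Ctnnb1 and Axin2 were not called.

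The first comparison asks which of these genes changed with OIR in libraries labelled WT. Of the 9 members tested, 1 was higher (Lef1), 0 were lower and 8 were not called, at an adjusted p under 0.05 in edgeR's quasi-likelihood test, where 886 of all 22853 genes tested were called (3.88%). The median log2 fold change of the members was 0.10, against 0.04 for all genes tested.

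Ndp, the ligand, was present at 5.51, 4.63 and 5.87 CPM in libraries labelled WT normoxia and at 5.63, 7.18 and 7.09 CPM in those labelled WT OIR. The groups overlapped, with WT OIR 1 below the highest control. The fitted log2 fold change was 0.32 ± 0.47 (SE), with a 95% interval of -0.60 to 1.24 and an adjusted p of 0.793.

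Fzd4, the receptor, reached 5.68, 7.08 and 4.78 CPM in normoxia and 5.39, 7.55 and 8.90 CPM in OIR in the libraries labelled WT. Its log2 fold change was 0.29 ± 0.44 (SE; 95% interval -0.58 to 1.16; adjusted p = 0.802), and the highest value came from WT OIR 3. Lrp5, the co-receptor whose loss causes familial exudative vitreoretinopathy, measured 4.09, 1.60 and 2.17 CPM in normoxia and 3.43, 2.76 and 1.64 CPM in OIR, with 9 to 36 reads a library, and a log2 fold change whose 95% interval ran from -1.60 to 1.60. Lrp6, the other co-receptor, gave 48.3, 43.2 and 35.7 CPM in normoxia and 47.5, 48.8 and 45.8 CPM in OIR. Its groups overlapped and the interval was narrower, from -0.22 to 0.51 on the log2 scale. Tspan12, whose product strengthens norrin signalling at the receptor, measured 4.97, 5.56 and 13.9 CPM in normoxia and 4.16, 7.73 and 2.91 CPM in OIR. A single control library, WT normoxia 3, carried most of the difference in means, and the log2 fold change of -0.70 ± 0.46 (SE) was not called (adjusted p = 0.542).

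Ctnnb1, which encodes beta-catenin, had 874 to 6722 reads a library and was the best measured member. Its level was 277 ± 19.3 CPM in WT normoxia and 299 ± 12.2 CPM in WT OIR (mean ± SD, n = 3 each). The log2 fold change of 0.10 had a 95% interval of -0.15 to 0.35, so a doubling of the mRNA lies outside what these libraries allow. Beta-catenin is controlled mainly through breakdown of the protein, which RNA does not measure. Axin2, a scaffold of the complex that destroys beta-catenin, stood at 15.9 ± 1.44 CPM in WT normoxia and 15.2 ± 0.559 CPM in WT OIR, with a log2 fold change of -0.06 (95% interval -0.63 to 0.51; adjusted p = 0.951). Apcdd1, a membrane inhibitor of Wnt signalling in vessels, had 5 reads in all, 4 in WT normoxia 1 and 1 in WT OIR 3, and 0 in the other 10 libraries, where finding no read allows a level of up to 3 counts, or 0.134 to 0.871 CPM by library depth. No fold change was given for it, and that bound covers counting error only, since the reads carry no molecular identifiers. It lies on chromosome 18 from 62922231 to 62961179.

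Lef1, the LEF-family factor that carries beta-catenin on DNA and is itself a target, was the one member that rose with OIR in libraries labelled WT. It measured 3.02, 0.979 and 2.17 CPM in the 3 libraries labelled WT normoxia, from 17, 22 and 10 reads. In those labelled WT OIR it measured 8.82, 11.8 and 3.45 CPM, from 36, 64 and 19 reads. The groups did not overlap, although WT OIR 3 lay close to the highest control. The log2 fold change was 2.03 ± 0.56 (SE), about 4.08-fold, with a 95% interval of 0.94 to 3.12, and its adjusted p was 0.0115 (0.000267 before adjustment). These values are pooled over genes, with 91412 degrees of freedom, and do not carry the scatter of Lef1 itself. Its coefficient of variation was 49.8% in WT normoxia and 52.7% in WT OIR. An exact two-sided permutation test of the 3 against 3 libraries gave p = 0.1, the smallest it can give. Any groups of 3 libraries that do not overlap give this p, so non-overlap here and below is weak by itself. The share of all genes whose groups do not overlap was not computed. The call rested on single libraries: the adjusted p was 0.322 without WT OIR 2, 0.121 without WT normoxia 2, where the log2 fold change was 1.60, and 0.0650 without WT OIR 1. It was also lost with the low-count filter filterByExpr, at an adjusted p of 0.0659.

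Relatives of Lef1 in the TCF family were not called. In libraries labelled WT, mean levels in normoxia and OIR were 20.7 and 18.8 CPM for Tcf7l2, 9.27 and 14.5 CPM for Tcf7l1, and 1.09 and 1.73 CPM for Tcf7, with adjusted p-values of 0.809, 0.451 and 0.809. The groups of Tcf7l1 did not overlap. Whether their changes differed from that of Lef1 was not tested.

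Summed levels of endothelial markers were higher in the libraries with most Lef1, although few single markers were called. The 12 genes of an endothelial marker list, all detected in every group, summed to 145, 147 and 130 CPM in the libraries labelled WT normoxia. The sum was 213 and 234 CPM in WT OIR 1 and 2, where Lef1 was highest, and 150 CPM in WT OIR 3, where Lef1 was 3.45 CPM. Of these 12 markers, 1 was called higher in OIR in the libraries labelled WT and 11 were not called, where 3.88% of all genes were called. The 1 was Pecam1, the adhesion molecule CD31, with a log2 fold change of 1.42 and an adjusted p of 5.64e-05. Pecam1 measured 10.1, 14.5 and 1.96 CPM in WT normoxia, from 57, 326 and 9 reads, and 34.0, 26.1 and 16.5 CPM in WT OIR. The p-value, pooled over genes, does not carry that scatter. The 5 red blood cell genes summed to 121 to 146 CPM in WT normoxia and to 277, 397 and 90.9 CPM in WT OIR 1, 2 and 3, and 4 of the 5 were called higher. In WT OIR 3 this sum lay below every control, while Lef1 lay above every control. Pericyte and mural cell markers showed the same order within the group, at 167, 203 and 99.6 CPM. Scaled to reads of the endothelial list, Lef1 gave 20.9, 6.65 and 16.8 reads per 1000 endothelial reads in WT normoxia and 41.4, 50.3 and 23.002 in WT OIR. These values do not overlap, but the nearest, WT normoxia 1 and WT OIR 3, rest on 17 and 19 reads of Lef1. Casp1 KO normoxia 3 gave 27.6 and Casp1 KO OIR 2 gave 25.9, both above WT OIR 3. The part of endothelial or blood RNA in the Lef1 result was not tested beyond these values. Markers of oligodendrocytes, cells of the optic nerve, summed to 191 to 241 CPM in WT normoxia and to 32.4 to 39.9 CPM in WT OIR. Their part in the Lef1 result was not tested either. By Pearson correlation of log2 CPM over the 12 libraries, the 3 genes whose profile was most like that of Lef1 were the hemoglobin gene Hba-a1 (r = 0.868), the VEGF receptor gene Kdr (r = 0.858) and Zfp879 (r = 0.843), a description in which all points share their libraries.

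**Figure D2:**
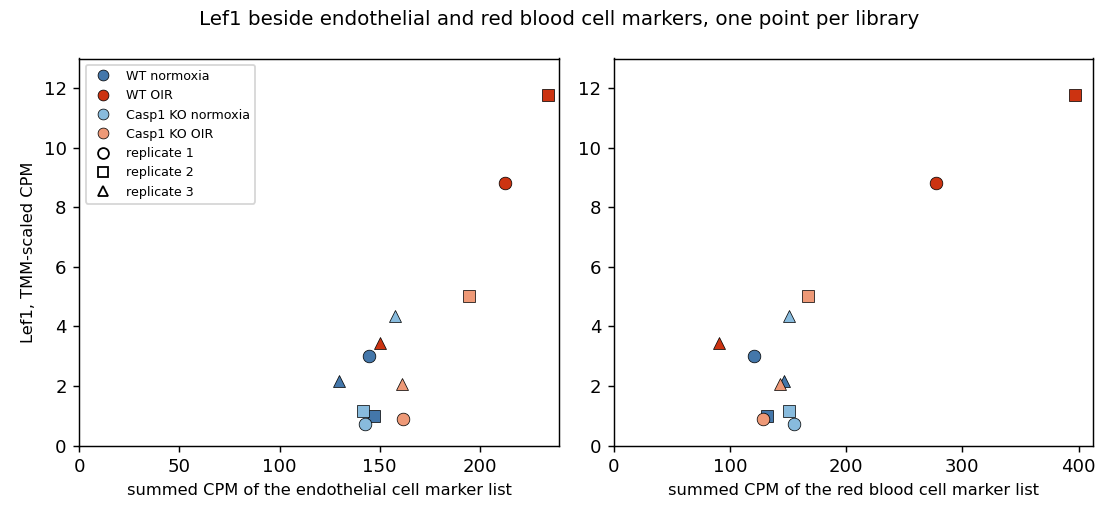
Lef1 in TMM-scaled CPM (y axis) against the summed CPM of 12 endothelial markers (left x axis) and of 5 red blood cell genes (right x axis), one point per library, with colour for the labelled group and shape for the replicate. WT OIR 1 and 2 stand apart at 213 and 234 CPM of endothelial markers with 8.82 and 11.8 CPM of Lef1, where WT OIR 3 lies among the other groups on the endothelial axis and, at 90.9 CPM, below all other libraries on the red blood cell axis.

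Within WT OIR, Lrp6, Tspan12 and Axin2 also had their highest level in replicate 2 and their lowest in replicate 3, while Fzd4 was highest in WT OIR 3 (8.90 CPM) and lowest in WT OIR 1 (5.39 CPM). Profiles of the 8 members over the 12 libraries correlated with each other between -0.56 (Ndp and Axin2) and 0.54 (Ndp and Lef1). The receptor pair Fzd4 and Tspan12 gave -0.30, and Axin2 and Lef1, both read as targets, gave 0.03. These values share libraries and, in the low genes, counting error. Outside the pathway, the closest profiles were Pfdn6 for Ndp (r = 0.909), Tbccd1 for Fzd4 (r = 0.905), Katna1 for Lrp5 (r = 0.885), Rufy1 for Lrp6 (r = 0.879), Actr8 for Tspan12 (r = 0.860), Shmt2 for Ctnnb1 (r = 0.898) and Lonrf3 for Axin2 (r = 0.900).

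The second comparison asks the same question in libraries labelled Casp1 KO. Of 8 members with reads, 0 were called in either direction, where 1038 of 22387 genes were called (4.64%). The members' median log2 fold change was 0.09, against -0.00195 for all genes. Lef1 measured 0.729, 1.16 and 4.35 CPM in Casp1 KO normoxia and 0.889, 5.04 and 2.06 CPM in Casp1 KO OIR, from 4 to 23 reads a library. One library in each condition was well above its partners, Casp1 KO normoxia 3 and Casp1 KO OIR 2, and the groups overlapped. The log2 fold change was 0.38 ± 0.79 (SE; 95% interval -1.18 to 1.93; adjusted p = 0.857). Endothelial markers summed to 158 CPM in Casp1 KO normoxia 3 and to 194 CPM in Casp1 KO OIR 2, the highest of their groups in both cases.

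Lrp5 was the member whose groups stood apart here, at 1.64, 1.74 and 2.41 CPM in Casp1 KO normoxia, from 6 to 10 reads, and at 4.89, 4.82 and 3.09 CPM in Casp1 KO OIR, from 15 to 22 reads. The groups did not overlap, which is a permutation p of 0.1. The log2 fold change of 1.15 ± 0.68 (SE) had a 95% interval of -0.19 to 2.48 and an adjusted p of 0.472, so it was not called. Ctnnb1 measured 270.3 ± 15.4 CPM in Casp1 KO normoxia and 297 ± 16.996 CPM in Casp1 KO OIR (mean ± SD, n = 3 each), a log2 fold change of 0.15 with an interval of -0.02 to 0.32. Ndp was 4.56 ± 0.823 and 4.60 ± 0.987 CPM, and Axin2 16.9 ± 2.51 and 16.9 ± 0.602 CPM. Fzd4, Lrp6 and Tspan12 had log2 fold changes of 0.12, 0.06 and 0.07, with adjusted p-values from 0.901 to 0.961.

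Further comparisons set the labelled genotypes side by side within each condition, and they share their libraries with the comparisons above. In normoxia, 0 of 9 members were called, where 233 of 22480 genes were (1.04%). Ctnnb1 differed by -0.03 on the log2 scale (95% interval -0.20 to 0.13), and Lef1 by 0.05 with an interval as wide as -1.69 to 1.79. After OIR, 0 of 9 were called, where 131 of 22774 genes were (0.575%). Lef1 came nearest, at 2.66 ± 2.14 CPM in libraries labelled Casp1 KO against 8.02 ± 4.22 CPM in those labelled WT (mean ± SD, n = 3 each). The log2 difference, Casp1 KO minus WT, was -1.58 ± 0.52 (SE), its adjusted p was 0.158 (0.00232 before adjustment), and the groups overlapped. Without WT OIR 3 it was -1.93 with an adjusted p of 0.00658. In the same comparison 1 of the 12 endothelial markers was called lower, Pecam1 at -1.03 (adjusted p = 0.0384), 0 were called higher and 11 were not called, with a list median of -0.10 against -0.04 for all genes. Of the 5 red blood cell genes 3 were called lower, with a list median of -1.13. The part of either list in the Lef1 value was not tested. Axin2 was 16.4 to 17.6 CPM in Casp1 KO OIR and 14.7 to 15.8 CPM in WT OIR, ranges that did not meet (permutation p = 0.1). Its log2 difference was 0.15 (95% interval -0.42 to 0.72; adjusted p = 0.892). Ndp was lower in mean after OIR in the libraries labelled Casp1 KO, at 4.60 against 6.63 CPM, with overlapping groups and an adjusted p of 0.754.

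**Figure D3:**
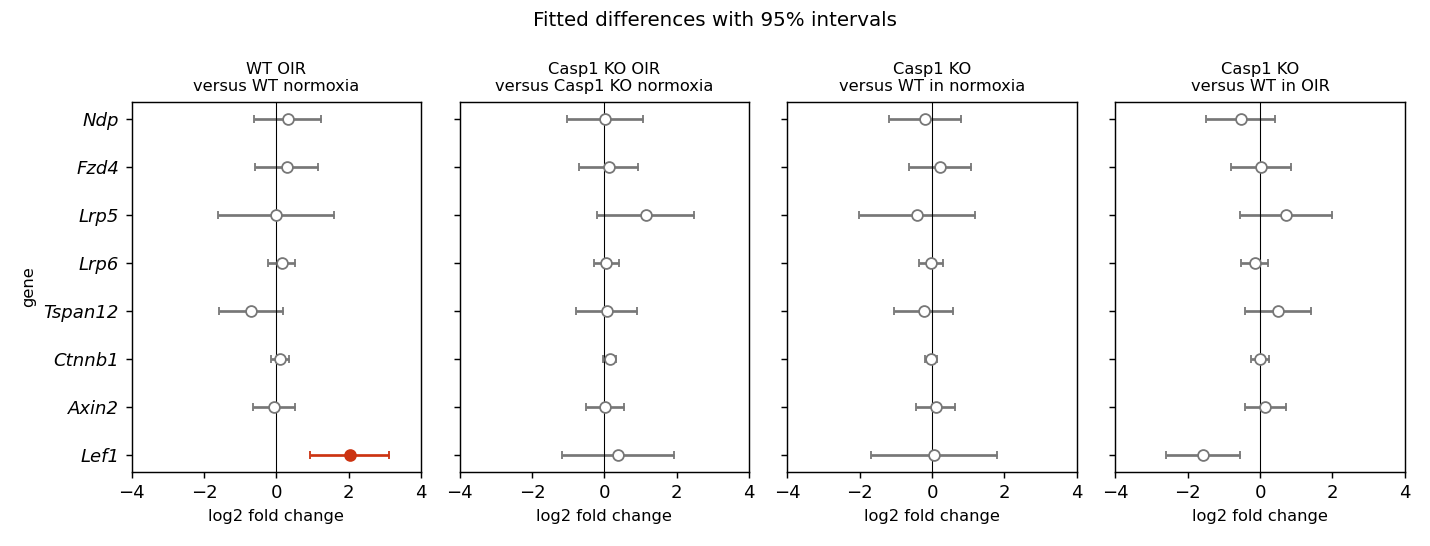
Log2 fold changes (x axis) of 8 genes (y axis) in 4 comparisons, with 95% intervals from the quasi-likelihood fit, whose spread is pooled over genes. A filled red point was called at an adjusted p under 0.05 and open grey points were not. The single filled point is Lef1 in libraries labelled WT, at 2.03, and the intervals of Ctnnb1 and Lrp6 are the narrowest.

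With the libraries of both labelled genotypes in a single fit, 0 of 9 members changed with OIR, where 1198 of 24484 genes did (4.89%). Lef1 had a log2 fold change of 1.26 ± 0.48 (SE; adjusted p = 0.119), Ctnnb1 of 0.12 (95% interval -0.04 to 0.29) and Axin2 of -0.02 (95% interval -0.43 to 0.38). The Lef1 value passed the threshold without Casp1 KO normoxia 3, at 1.84 with an adjusted p of 0.0137, and without Casp1 KO OIR 1, at 1.52 with an adjusted p of 0.0350. The interaction, which tests whether the change with OIR differed between the labelled genotypes, was called for 0 of 9 members, where 277 of 24484 genes were called (1.13%). For Lef1 it was -1.65 ± 0.93 (SE; unadjusted p = 0.0742; adjusted p = 0.570). A rise called in one labelled genotype and not in the other is therefore not shown to differ between them.

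The rest of the pathway was read from 8 lists of genes, 106 genes in all without the members. In libraries labelled WT, 99 of them were tested, 3 were higher after OIR (Wnt3, Sfrp1 and Cd34) and 0 were lower, where 3.88% of all genes were called, with a median log2 fold change of -0.02. In libraries labelled Casp1 KO, 99 were tested, 5 were higher (Dkk3, Sostdc1, Bcl9l, Pygo1 and Slc2a1) and 0 were lower, where 4.64% of all genes were called, with a median of 0.25, or 0.22 with genes at 0 in a whole group put at the limit of 3 counts. Neither count stands apart from that background. Among the 15 other Frizzled and Wnt receptors, 0 were called in either direction in all 6 fits. Fzd4 was not the Frizzled with the highest CPM here. In libraries labelled WT normoxia Fzd3 stood at 59.6 CPM, Fzd5 at 25.3 and Fzd10 at 11.7, against 5.85 for Fzd4. The means of Fzd3, Fzd5 and Fzd10 were higher than that of Fzd4 in all 4 groups. The 16 cytoplasmic transducers and parts of the destruction complex also gave 0 calls in all 6 fits. So did the 9 genes of the R-spondin module, which controls receptor levels on the cell surface and holds genes of opposite effect. Their median log2 fold changes in libraries labelled WT were -0.03 and -0.38, the latter -0.30 with genes at their limit. Of 14 other general target genes of beta-catenin, such as Ccnd1, Nkd1 and Tcf7l2, some of them also on the other lists, 0 were called. Their median was 0.58 in libraries labelled WT, or 0.48 with genes at their limit, and 0.35 in those labelled Casp1 KO, or 0.34.

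Among the 10 endothelial genes known to respond to norrin signalling, 10 were tested for OIR in libraries labelled WT and 9 in those labelled Casp1 KO. In each case 1 was called, where 3.88% and 4.64% of all genes were called. Cd34, a sialomucin that marks vessels and tip cells, measured 4.62, 4.01 and 3.04 CPM in WT normoxia and 23.3, 20.99 and 3.82 CPM in WT OIR. As for Lef1, the third OIR library was low, and here the groups overlapped. Like the other SEs, the SE that follows is pooled over genes and does not carry that scatter. The log2 fold change was 2.01 ± 0.38 (SE), with an adjusted p of 1.99e-05, and 1.64 to 2.48 over 15 alternatives, all of them called. Cldn5, the tight junction gene of the blood-retina barrier, was 25.5, 26.1 and 4.54 CPM in WT OIR 1, 2 and 3 and 13.9 to 19.5 CPM in WT normoxia, and was not called (adjusted p = 0.760). Slc2a1, which encodes the glucose transporter GLUT1 and is also a hypoxia target, was 114, 120 and 137 CPM in Casp1 KO normoxia and 222, 228 and 231 CPM in Casp1 KO OIR. It rose by 0.89 ± 0.10 (SE) on the log2 scale there, with an adjusted p of 3.88e-16, and not by the test in libraries labelled WT, at 0.10 (adjusted p = 0.766). After OIR, Slc2a1 was higher in libraries labelled Casp1 KO than in those labelled WT by 0.50 on the log2 scale (adjusted p = 0.0485), a call that was lost in 9 of 14 alternatives, including without any one of WT OIR 1, WT OIR 2 and the 3 libraries labelled Casp1 KO OIR.

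Markers of neighbouring eye tissues moved with the libraries labelled Casp1 KO OIR, in which Slc2a1, Dkk3, Sostdc1, Bcl9l and Pygo1 were called higher. Retinal pigment epithelium genes summed to 1035 to 1104 CPM there and to 630.3 to 752 CPM in the other 9 libraries, and 3 of 5 were called higher than in Casp1 KO normoxia. Lens genes summed to 581 to 669 CPM there, to 335 to 347 CPM in Casp1 KO normoxia and to 223 to 443 CPM in libraries labelled WT. Of these lens genes, 5 of 6 were called higher than in Casp1 KO normoxia, where 4.64% of all genes were called in either direction. The part of these tissues in the 5 pathway genes was not tested.

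Of 15 secreted inhibitors, 14 were tested in each labelled genotype. After OIR 1 was called higher in libraries labelled WT and 2 in those labelled Casp1 KO, where 3.88% and 4.64% of all genes were called. Sfrp1, which binds Wnt proteins outside the cell, rose with OIR in libraries labelled WT, from 16.3, 17.7 and 18.3 CPM to 28.2, 29.8 and 37.3 CPM, by 0.86 ± 0.24 (SE) on the log2 scale (adjusted p = 0.0144). Without WT normoxia 1, WT normoxia 2 or WT OIR 3 its adjusted p was 0.0895, 0.0595 and 0.0812. Over both labelled genotypes Sfrp1 rose by 0.70 ± 0.16 (adjusted p = 0.000777). Dkk3, an abundant member of the Dickkopf family, was 271, 258 and 269 CPM in Casp1 KO normoxia and 381, 334 and 361 CPM in Casp1 KO OIR, a rise of 0.44 ± 0.09 (SE; adjusted p = 2.03e-05). In libraries labelled WT it was 326, 331 and 378 CPM in normoxia and 288, 266 and 271 CPM in OIR, with a log2 fold change of -0.34 that was not called (adjusted p = 0.130; 0.0364 without WT OIR 3). Dkk3 was lower by -0.37 in Casp1 KO than in WT normoxia (adjusted p = 0.00209), a call lost without WT normoxia 3. A fit to all 12 libraries lost it too (adjusted p = 0.0906). Muller glia markers summed to 2545 to 2606 CPM in WT normoxia, 1977 to 2059 in WT OIR, 1774 to 1915 in Casp1 KO normoxia and 2674 to 2682 in Casp1 KO OIR, which is the order of the Dkk3 group means, and their part in it was not tested. Sostdc1, an inhibitor of both Wnt and BMP signalling, was 13.3, 13.4 and 17.1 CPM in Casp1 KO normoxia and 23.6, 28.7 and 25.1 CPM in Casp1 KO OIR (log2 fold change 0.83, adjusted p = 0.0247). The call was lost without 4 of the 6 libraries, all but Casp1 KO normoxia 3 and Casp1 KO OIR 1. It was also lost in a fit to all 12 libraries (adjusted p = 0.0848).

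Of the 14 nuclear partners of TCF factors, Bcl9l and Pygo1, both co-activators that link beta-catenin to transcription, rose with OIR in libraries labelled Casp1 KO. The other 12 were not called there, where 4.64% of all genes were called. Bcl9l went from 99.0, 107 and 120 CPM to 152, 148 and 156 CPM, a log2 fold change of 0.50 ± 0.11 (SE; adjusted p = 0.000377) that was called in all 14 alternatives. Pygo1 went from 1.09, 0.290 and 2.17 CPM, with 1 to 9 reads, to 9.12, 4.16 and 3.91 CPM, with an adjusted p of 0.0256. That p was 0.365 without Casp1 KO OIR 1, 0.0861 without Casp1 KO normoxia 1 and 0.133 without Casp1 KO normoxia 2. The Pygo1 call was also lost with DESeq2 (adjusted p = 0.0559) and in a fit to all 12 libraries (adjusted p = 0.0632). In libraries labelled WT neither was called.

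Of 19 Wnt ligands, 1 was called (Wnt3). In libraries labelled WT, 13 were tested for OIR, where 3.88% of all genes were called. Between the labelled genotypes in normoxia 14 were tested, where 1.04% of all genes were called. Wnt3, which signals through beta-catenin, had 0 reads in each of the 3 libraries labelled WT normoxia, which hold 33065134 counts together, and 5 to 23 reads in each of the other 9. It stood at 2.69, 1.66 and 4.18 CPM in WT OIR, at 1.28, 1.45 and 5.07 CPM in Casp1 KO normoxia and at 2.67, 2.41 and 1.23 CPM in Casp1 KO OIR. With WT normoxia put at a limit of 3 counts over the group, its mean was 30.995-fold higher in WT OIR and 28.3-fold higher in Casp1 KO normoxia. These ratios leave out the counting error of the higher group. The limit rests mostly on WT normoxia 2, which holds 22815830 of the counts. In the quasi-likelihood test the adjusted p was 0.00171 for WT OIR and 0.0205 for Casp1 KO normoxia, each against WT normoxia. The first call was lost without WT OIR 3 (adjusted p = 0.0581), and the second without any of the 3 libraries labelled WT normoxia or without Casp1 KO normoxia 3. With the replicate number as a block the second was lost too (adjusted p = 0.174). Markers of oligodendrocytes, which the retina lacks and the optic nerve holds, also set the libraries labelled WT normoxia apart, at 191 to 241 CPM against 22.97 to 39.9 CPM in the other 9, and their part in the Wnt3 result was not tested. Among the ligands, Wnt5a had the highest mean in libraries labelled WT, at 12.2 CPM in WT normoxia and 10.8 CPM in WT OIR.

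**Figure D4:**
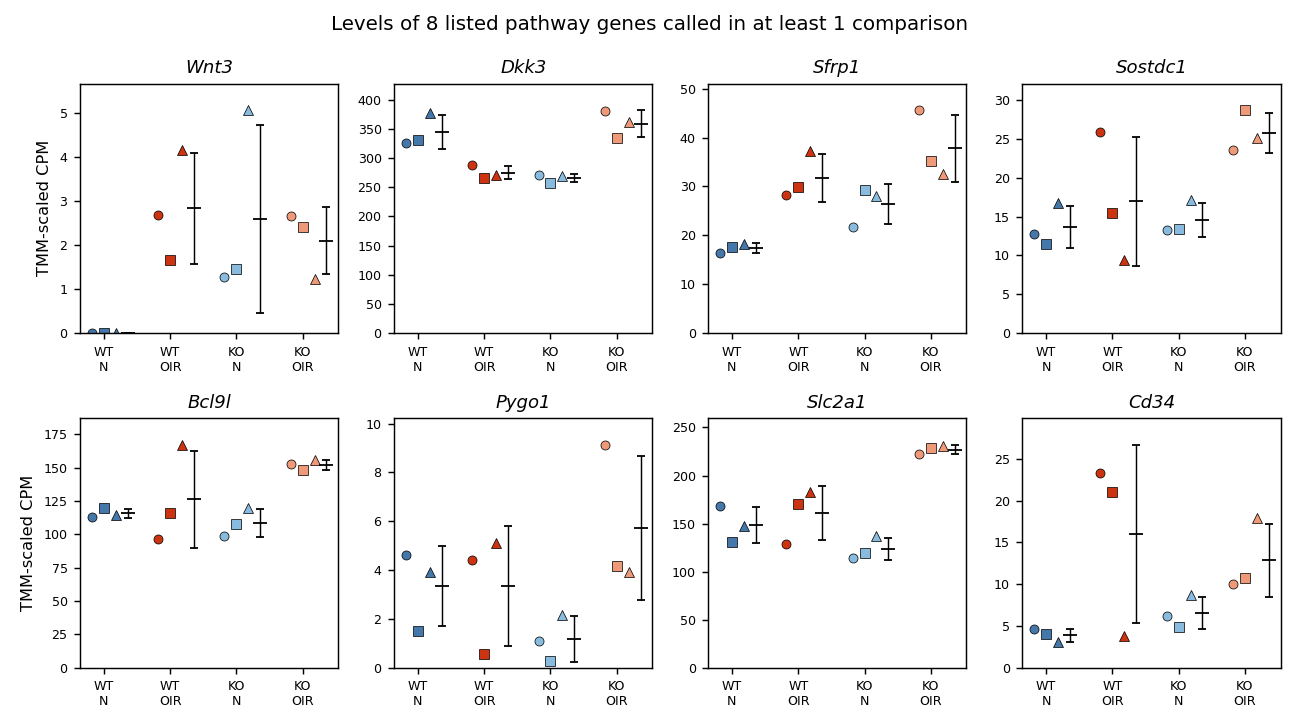
TMM-scaled CPM (y axis) of the 8 listed pathway genes called in at least 1 fit, with groups, symbols and bars as in the plot of the members' levels. Wnt3 sits at 0 in the 3 libraries labelled WT normoxia, Slc2a1 lies between 222 and 231 CPM in Casp1 KO OIR, and Cd34 is high in 2 of the 3 libraries labelled WT OIR.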

How the data were processed

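Retinal mRNA was measured in 12 libraries. Per the labels and methods, the authors made QuantSeq 3' libraries (1 x 75 bp), aligned reads to mm10 with STAR 2.7.5a and counted them with HTSeq 0.6.1; versions come from the submitters' processing notes, while the annotation and strand setting are not given in the sources used here. The deposited values are whole-number counts per gene symbol. Depth ran from 3391203 to 22815830 counts a library. From these counts, edgeR 4.0.16 (R 4.3.3) was used with TMM scaling and the functions glmQLFit and glmQLFTest on genes that had 1 or more counts among the fitted libraries, with Benjamini-Hochberg adjustment over all genes, at 0.05. Comparisons of 2 groups used their own 6 libraries, and the fit over both genotypes and the interaction used 12. Fold changes used a prior count of 0.125. The quasi-likelihood dispersion was pooled over genes in every main fit, so SEs and intervals do not hold a gene's own scatter. Single genes were compared by exact permutation tests (20 assignments). The main edgeR fit was tested on simulated data for WT OIR against WT normoxia and for the interaction, and the other steps were not. Alternatives were other scalings, DESeq2 1.42.0, low-count filters, a newer quasi-likelihood method, the replicate block, a fit to all libraries and each library left out. Thinning of WT normoxia 2 was added after seeing the data. The members and lists were chosen with earlier results of these data known. Named were all members, the up to 4 genes of each list with the smallest p among those called in any fit, the 3 profiles most like each member (only the first is given for all but Lef1), and Casp1. Tcf7, Tcf7l1, Tcf7l2, Fzd3, Fzd5, Fzd10, Wnt5a and Cldn5, and the markers named, were named after their values were seen. Marker lists for endothelial cells, pericytes, red blood cells, Muller glia, rods, oligodendrocytes, retinal pigment epithelium and lens were summed in CPM.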

Additional observations from a re-analysis of the deposited data

Results flagged for a closer look

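Of the members and the listed genes named, 3 changed differently with OIR in the libraries of the 2 labelled genotypes, by the interaction test of edgeR's quasi-likelihood method. The interaction of Wnt3 was -7.46 (adjusted p = 0.00395), a value that depends on the prior count because all libraries labelled WT normoxia are at 0 reads, and its adjusted p was 0.0606 without Casp1 KO normoxia 3. For Dkk3 it was 0.76 (adjusted p = 0.000344), with a fitted change of -0.34 in libraries labelled WT and 0.44 in those labelled Casp1 KO, and for Slc2a1 0.76 (adjusted p = 0.00259), with changes of 0.10 and 0.89. The Dkk3 and Slc2a1 interactions were called in all 20 alternatives run. Markers of Muller glia, retinal pigment epithelium and lens were also highest in the libraries labelled Casp1 KO OIR, and their part in the Dkk3 and Slc2a1 values was not tested.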

How the results depend on the processing

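Of 771 alternative values of the members' log2 fold changes, 708 kept direction and side of the threshold, 4 lost and 4 gained the call, all for Lef1, 0 reversed a call, and 55 uncalled values changed sign. The number of members called in WT OIR against WT normoxia was 1, 0 with filterByExpr and 0 to 1 with single libraries left out. It was 0 to 1 with a library left out for Casp1 KO against WT in OIR. Over both genotypes it was 1 with the newer quasi-likelihood method and 0 to 1 with a library left out. In these fits the lost or gained member was Lef1, which kept its call in libraries labelled WT in 11 of 15 alternatives, with log2 fold changes of 1.60 to 2.46 and adjusted p-values of 0.000680 to 0.322. Counts of all genes called moved further: 886 in WT OIR against WT normoxia was 586 with filterByExpr and 545 without WT normoxia 1, and 1038 in Casp1 KO was 642 in a fit to all 12 libraries. The 233 for the genotypes in normoxia became 109 in that fit, 444 with DESeq2 and 128 without Casp1 KO normoxia 3, the 131 in OIR became 16 with filterByExpr, 255 in the fit to all 12 libraries, 47 without WT OIR 2 and 815 without WT OIR 3, and the 277 interactions became 139 with filterByExpr, 174 without WT OIR 2 and 597 without WT OIR 3. The cause of these shifts was not tested. Same-numbered replicates did not deviate together (correlations of -0.03 to 0.03), so the numbers were not taken as pairs, and with the replicate block 1 member was called in WT OIR against WT normoxia, Lef1 at 1.997 (adjusted p = 0.0187), and 794 genes. With the block the counts of members called did not differ in any of the 6 fits. Of 768 alternative values of the 8 named pathway genes, 45 lost and 9 gained a call and 0 reversed one. Depth limits Lrp5, with 6 to 36 reads a library, and Lef1, with 4 to 64, and Apcdd1 was at or under 4 reads in every library.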
